A study of Rattus norvegicus with 4 samples.

Results

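The libraries compared here are NEVLP2, from a rat liver perfused warm, and CS, from a rat liver stored cold, and the cells are those without T cell receptor complex transcripts. Barcodes were kept with at least 200 genes, at least 500 UMIs (unique molecular identifiers, each standing for 1 counted transcript), at most 20% of UMIs from mitochondrial genes, and 0 UMIs of Cd3e, Cd3d and Cd3g. They were then grouped by 1 marker each: Clec4f for Kupffer cells, Stab2 for sinusoidal endothelium, Colec11 for stellate cells, Flt3 for dendritic cells and Ncr1 for NK cells. Barcodes with UMIs of more than 1 of these markers were left out. This gave 4718 barcodes in CS and 2765 in NEVLP2, 7483 of the 19949 kept barcodes without Cd3 in both libraries and of 37529 deposited barcodes in the whole series. A group of B cells was to be set by Cd79a, but the files hold only Cd79al, found in 1 CS barcode and 0 NEVLP2 barcodes of this rule, so no such group was formed.

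All 4 libraries of the study came from Lewis rat liver and were made on the 10x Genomics platform, 1 library per condition. CS was held for 4 h at 4 °C, which is the series design's account of cold storage. NEVLP2 was perfused for 4 h at 37 °C with William's E medium that held human albumin, heparin, papaverine, insulin, hydrocortisone, antibiotics and leukoreduced packed Lewis red cells, and its digit is not explained. The remaining libraries are naive, from a liver neither stored nor perfused, and NEVLPcty, from a liver perfused with IL-10 and TGF-β added, a reading that also rests on the series design. Age, sex and the number of animals per library were not given in the sources used here. Each condition is 1 library, so a difference between NEVLP2 and CS cannot be told apart from a difference between animals or preparations, and no test or p-value is given. The 5 groups of a library share its animal, its preparation and its free RNA, and are not replicates of one another.

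Kupffer cells are the resident macrophages of the liver sinusoids, where they take up particles and old red cells, and they stand next to a fenestrated endothelium that clears macromolecules by scavenger receptors. Stellate cells store vitamin A in the space behind that endothelium, and NK cells and dendritic cells patrol the same channels. In innate immune signalling the NF-kB factors enter the nucleus once their inhibitors are degraded, and induce cytokines, survival genes and their own inhibitors. NRF2 is a transcription factor that induces detoxifying enzymes and the heme-degrading enzyme heme oxygenase.

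In the kept barcodes without Cd3 the median depth was 4524 UMIs in CS and 3440.5 in NEVLP2. More than 1 marker was found in 1517 CS barcodes (14.6%) and 440 NEVLP2 barcodes (4.59%), and 4133 and 6375 had none. The Clec4f group held 1860 barcodes in CS and 1466 in NEVLP2, Stab2 2350 and 767, Colec11 138 and 236, Flt3 157 and 111, and Ncr1 213 and 185. Summed UMIs per group ran from 669972 (Colec11, CS) to 16932902 (Clec4f, CS). Of the deposited barcode sequences 35 occurred in both libraries, 1 of them in a marker group in both. Scrublet, a doublet caller, marked 3.02% of kept CS barcodes and 2.04% of kept NEVLP2 barcodes, and these were left in.

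Markers that set the groups were also found in barcodes with Cd3. Clec4f was found in 28.7% of the CS barcodes with Cd3 (median 7937 UMIs) and in 29.4% of those without (median 4524). In NEVLP2 these shares were 15.3% (median 9955 UMIs) and 18.6%. Stab2 was found in 8.39% and 4.62% of the barcodes with Cd3 in CS and NEVLP2, against 34.3% and 11.2% of those without. Flt3 was found in 25.9% and 19.8% with Cd3, against 2.36% and 1.43% without. Colec11 (1.63% and 1.98% with Cd3, 6.77% and 4.92% without) and Ncr1 (1.17% and 1.82%, 3.10% and 2.28%) were rarer. The source of these UMIs was not tested. Of the Clec4f group 53.9% in CS and 45% in NEVLP2 had at least 3 of the 7 other Kupffer markers. At least 3 endothelial markers were found in 61.4% and 36.4% of the same barcodes. The other markers still had their highest level in the Clec4f group in both libraries for 7 of 7, and the same held for 9 of 10 endothelial markers in the Stab2 group, 10 of 10 NK markers in the Ncr1 group, 6 of 12 dendritic markers in the Flt3 group and 6 of 11 stellate markers in the Colec11 group.

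The Colec11 group went against its label. Only 29% of its CS barcodes and 31.8% of its NEVLP2 barcodes had 3 or more other stellate markers, while 89.1% and 86% had 3 or more endothelial markers. Endothelial markers summed to 15401 CPM (UMIs of the genes scaled to the same total in every group) in CS and 8639 in NEVLP2, against 1746 and 1235 CPM for stellate markers. Pdgfrb was at 0 in both libraries, and Dcn and Col1a1 were at 0 in NEVLP2. Markers of other cell types differed between the libraries in these barcodes: Kupffer markers summed to 1958 CPM in CS and 238 CPM in NEVLP2, monocyte markers to 1321 and 813 CPM, dendritic markers to 533 and 831 CPM and NK markers to 28.4 and 485 CPM. Within the dendritic sum Cd83, also in the NF-kB list below, was at 71.6 and 315 CPM. The part of these markers in the group's ratios was not tested. These barcodes are called Colec11-positive below.

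Levels are CPM of the UMIs summed over a group. A gene was measured in a group with at least 20 UMIs in both libraries together and at least 20 CPM in 1 of them. Past 2-fold, taken on the ratio of NEVLP2 to CS, is a size and not a test, and the 95% intervals are exact and cover counting error only. Of 6671 genes measured in the Stab2 group, 764 were at least 2-fold higher in NEVLP2 (11.5%) and 2693 at least 2-fold lower (40.4%). Of 6534 in the Colec11 group, 815 (12.5%) were higher and 2375 (36.3%) lower. Of 5910 in the Clec4f group, 647 (10.9%) were higher and 1556 (26.3%) lower. The asymmetry was smaller in the Flt3 group, with 683 (13.1%) higher and 928 (17.8%) lower of 5228, and in the Ncr1 group, with 524 (8.53%) and 1130 (18.4%) of 6145.

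**Figure D1:**
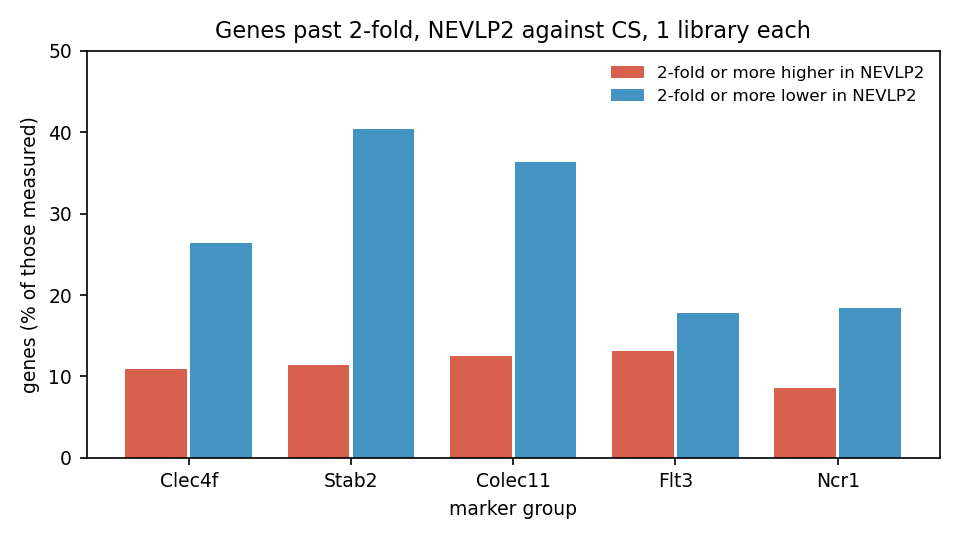
Share of measured genes (percent, y axis) at least 2-fold higher (red) or lower (blue) in NEVLP2 than in CS, by marker group (x axis), with 1 library per condition. Lower genes outnumber higher ones in each group, most in Stab2 (40.4% against 11.5%).

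The median log2 ratio over measured genes was -0.62 in the Stab2 group, -0.50 in Colec11, -0.33 in Clec4f, -0.18 in Ncr1 and -0.08 in Flt3. Very abundant transcripts took part of the NEVLP2 UMIs in the Stab2 group, with Cxcl1 at 25543 CPM, Cxcl2 at 23809, Ccl2 at 19188 and Hmox1 at 11754, and their part in the lower median was not tested. With each group centred on its own median, the Stab2 group had 1514 genes higher and 1801 lower, Colec11 1411 and 1652, Clec4f 959 and 999, Ncr1 698 and 902, and Flt3 769 and 824. The log2 ratios below are not centred and can be read against these medians.

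Genes that differed in every group came next. Of 4083 genes measured in all 5 groups, 121 (2.96%) were at least 2-fold higher in each group and 241 (5.9%) at least 2-fold lower in each. A further 109 genes were higher in 4 groups and 264 lower in 4. With centring the counts over all 5 groups were 185 and 142, so the surplus of lower genes depended on the scaling. With at least 2 UMIs of the marker required they were 67 and 79, of which 65 and 64 were among the 121 and 241.

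A gene was called background-prone in a group where its level, in the library where it was higher, lay below 10% of the highest level among the groups and the unmarked barcodes of that library, since free RNA could then supply it. Of the 121 higher genes 81 were background-prone in none of the 5 groups, and of the 241 lower genes 230. The named genes are the 12 higher and 11 of the 12 lower genes with the largest smallest ratio over the 5 groups among these 81 and 230. In the sentences below, values follow the order Clec4f, Stab2, Colec11, Flt3 and Ncr1.

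The promoters of 4 of the named higher genes show which letters were counted in their start regions. Each is the 250 bases before the RefSeq start site in the rat build GRCr8, written 5′ to 3′ on the strand of the gene. The capitals mark matches, on either strand, to the letters of a kB element that NF-kB factors can bind (3 G, 2 free bases, 2 T, 1 free base, 2 C) or to TGACNNNGC, the core of an antioxidant response element (ARE). Nfkb2 (chr1:255108124-255108373, plus strand) and Bcl3 (chr1:88613556-88613805, minus strand) each hold 1 kB match, 20 and 38 bases before the start. Ankrd33b (chr2:84069580-84069829, minus strand) holds 2 overlapping kB matches and 1 ARE match. Sod2 (chr1:50050169-50050418, minus strand) holds 1 ARE match and no kB match.
Nfkb2: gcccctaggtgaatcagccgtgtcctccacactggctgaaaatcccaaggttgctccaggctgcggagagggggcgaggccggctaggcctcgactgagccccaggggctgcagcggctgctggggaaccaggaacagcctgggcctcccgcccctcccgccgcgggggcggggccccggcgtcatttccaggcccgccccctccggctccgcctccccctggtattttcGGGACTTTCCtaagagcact
Bcl3: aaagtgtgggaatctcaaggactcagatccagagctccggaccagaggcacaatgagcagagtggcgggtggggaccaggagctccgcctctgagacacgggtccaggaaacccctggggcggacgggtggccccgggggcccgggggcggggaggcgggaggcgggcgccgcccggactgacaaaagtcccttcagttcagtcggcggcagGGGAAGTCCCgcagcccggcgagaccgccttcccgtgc
Ankrd33b: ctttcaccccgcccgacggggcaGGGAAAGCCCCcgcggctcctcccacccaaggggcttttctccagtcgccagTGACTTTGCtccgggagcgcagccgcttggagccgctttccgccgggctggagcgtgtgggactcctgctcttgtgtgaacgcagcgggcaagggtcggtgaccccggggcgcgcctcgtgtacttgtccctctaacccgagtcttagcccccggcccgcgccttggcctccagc
Sod2: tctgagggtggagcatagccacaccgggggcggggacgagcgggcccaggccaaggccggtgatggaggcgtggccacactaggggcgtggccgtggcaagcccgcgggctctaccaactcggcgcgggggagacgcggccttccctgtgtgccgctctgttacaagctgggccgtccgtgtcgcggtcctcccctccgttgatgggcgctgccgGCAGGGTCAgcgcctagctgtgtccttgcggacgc

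Over all 27457 RefSeq promoters of this length, searched on both strands, 4.28% held the kB letters. Of the 121 genes higher in all groups 100 matched a promoter, and 17 of them (17%) held these letters, including Nfkbia, Rel, Cxcl1, Cxcl2 and Il1rn. Of the 241 lower genes 189 matched and 3 (1.59%) held them. The ARE letters were in 10.2% of all promoters, 13% of the higher set and 13.8% of the lower set, and those of an interferon-stimulated response element (GAAA repeated after 2 free bases) in 3.29%, 5% and 1.59%. A match describes the letters only and is neither a binding site nor a cause, and windows without a match say nothing of the factor.

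Sod2, the superoxide dismutase of mitochondria and a long-known NF-kB target, led the higher genes. Its level in CS was 352, 117, 364, 71.8 and 92.4 CPM, and in NEVLP2 6466, 8513, 8102, 1215 and 1482 CPM. The log2 ratios were 4.20, 6.18, 4.48, 4.08 and 4.00, so the lowest NEVLP2 group stood above the highest CS group. In the Colec11-positive barcodes of CS, 34% of Sod2 UMIs lay in 1 barcode.

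Next to Sod2 stood signalling genes of the NF-kB pathway. Birc3, an inhibitor of apoptosis and ubiquitin ligase of TNF receptor complexes, was at 13.9, 7.68, 11.9, 13.9 and 42.7 CPM in CS and at 271, 631, 557, 232 and 322 CPM in NEVLP2. Nfkb2, which encodes the precursor p100, lay between 24.8 and 31.3 CPM in every CS group and between 179 and 343 CPM in every NEVLP2 group, with log2 ratios of 2.97, 3.76, 3.45, 2.74 and 3.39. All NEVLP2 groups thus stood above all CS groups. Bcl3, a nuclear IkB protein, ran from 9.06 to 18.9 CPM in CS and from 99.5 to 252 CPM in NEVLP2, with the highest ratio in Flt3 (log2 4.06) and the lowest in Stab2 (2.53).

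Enzymes and stress genes made up the rest of the higher genes. Nqo1, a quinone reductase induced by NRF2, was at 10.2, 15.5, 20.9, 6.15 and 4.97 CPM in CS and at 103, 178, 151, 125 and 36.6 CPM in NEVLP2. Gadd45a, a growth arrest and DNA damage gene, had log2 ratios of 3.36, 2.40, 2.18, 3.41 and 3.24. Il4i1, a secreted amino acid oxidase, had ratios from 2.21 (Clec4f) to 5.22 (Stab2), but 76.6% of its NEVLP2 UMIs in the Stab2 group and 68.2% in the Ncr1 group came from 1 barcode each.

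Cell surface and signalling genes completed the 12. PVR, an adhesion receptor that is a ligand of NK cell receptors, was at 2.99 to 6.14 CPM in CS and 27.4 to 87.9 CPM in NEVLP2. Ramp3, which modifies receptors of the calcitonin family, had log2 ratios of 2.84, 5.17, 4.79, 2.71 and 3.38. Ralgds, an exchange factor of Ral GTPases, and Ankrd33b had their largest ratios in the Flt3 group, 4.08 and 5.23, and their smallest in Stab2, 2.29 and 2.32. Ccl9, a CC chemokine of myeloid cells, had its largest in Clec4f (4.01), and 53.8% of its NEVLP2 UMIs in the Ncr1 group lay in 1 barcode. With every barcode weighted equally, Ccl9 in the Flt3 group dropped under 2-fold, to 0.92.

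**Figure D2:**
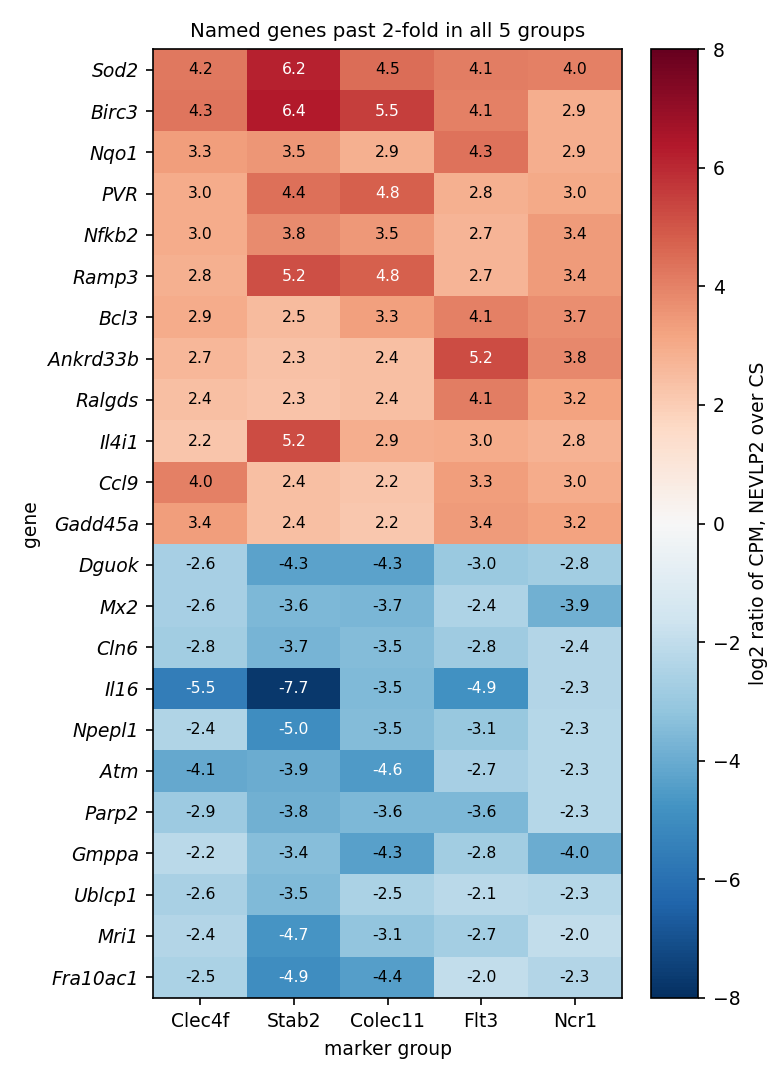
Log2 ratio of CPM, NEVLP2 over CS (colour and printed value), for the 12 named genes higher (top) and 11 lower (bottom) in all 5 marker groups (columns), 1 library per condition. Birc3 and Sod2 in the Stab2 group (6.36 and 6.18) and Il16 in the Stab2 group (-7.75) are the extremes.

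Il16, a secreted chemoattractant that binds CD4, had the lowest ratios of the named lower genes in the Clec4f, Stab2 and Flt3 groups. Its level was 27.5, 47.3, 46.3, 110 and 76.5 CPM in CS and 0.596, 0.220, 4.04, 3.80 and 15.0 in NEVLP2. The Stab2 value in NEVLP2 is 1 UMI, and the interval of its log2 ratio ran from -13.05 to -5.26. Atm, the kinase that signals DNA double-strand breaks, was at 64.7 to 96.4 CPM in the CS groups and at 3.23 to 19.7 CPM in the NEVLP2 groups. For both genes every CS group stood above every NEVLP2 group.

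Mitochondrial, DNA repair and interferon genes were among the others. Dguok, the mitochondrial deoxyguanosine kinase, was close to even across groups in CS, at 40.3, 52.1, 46.3, 46.3 and 51.7 CPM, and was at 6.48, 2.64, 2.42, 5.91 and 7.51 CPM in NEVLP2. Mx2, an interferon-induced GTPase, was at 150, 241, 206, 71.2 and 40.7 CPM in CS and at 24.3, 20.3, 16.2, 13.1 and 2.82 CPM in NEVLP2. Parp2, a poly(ADP-ribose) polymerase of DNA repair, had log2 ratios of -2.88, -3.83, -3.61, -3.57 and -2.28. Dguok and Parp2 had their lowest ratios in Stab2 and Colec11, and Mx2 in Ncr1 (-3.85).

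The remaining named lower genes serve housekeeping tasks: Gmppa in mannose activation, Mri1 in methionine salvage, Npepl1 as an aminopeptidase, Ublcp1 as a phosphatase of the proteasome and Cln6 as a protein of the endoplasmic reticulum. Together with Fra10ac1 their CS levels ran from 22.6 to 62.8 CPM. Their log2 ratios ran from -1.99 (Fra10ac1, Flt3) to -5.00 (Npepl1, Stab2). No named lower gene was above 20 CPM in NEVLP2 in any group apart from Mx2.

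The naive and NEVLPcty libraries share no sample with CS and NEVLP2, so the same genes were read there in the groups with at least 50 barcodes in both, which are Clec4f, Flt3 and Ncr1. Of the 121 higher genes, 93 of 118 measured (78.8%) were also at least 2-fold higher in NEVLPcty than naive in the Clec4f group, where 17.5% of all measured genes were. In the Flt3 group they were 75 of 101 (74.3%, background 8.84%) and in the Ncr1 group 72 of 105 (68.6%, background 18.1%). Of the 241 lower genes, 159 of 231 (68.8%, background 17.9%) were lower in Clec4f, 160 of 227 (70.5%, background 18.3%) in Flt3 and 88 of 226 (38.9%, background 9.53%) in Ncr1. NEVLPcty differs from naive by perfusion and by the cytokines, which cannot be told apart in that pair.

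In the Clec4f group Sod2 was at 615 CPM in the naive library, 352 for CS, 6466 for NEVLP2 and 3663 for NEVLPcty. In the Ncr1 group Nfkb2 was at 30.4, 26.8, 281 and 247 CPM in the same order. Atm in the Clec4f group was at 85.9, 73.7, 4.32 and 10.9 CPM. NEVLPcty lay well under NEVLP2 for Sod2 in the Flt3 group (360 against 1215 CPM) and the Ncr1 group (442 against 1482 CPM). Among the named genes measured there, those under 2-fold in NEVLPcty over naive, or of the other sign, were mostly in the Ncr1 group. Their log2 ratios were 0.72 for Il16, -0.53 for Atm, -0.19 for Ublcp1, 0.94 for Nqo1, 0.67 for PVR and -0.26 for Gadd45a, which was also under 2-fold in Clec4f (0.92).

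**Figure D3:**
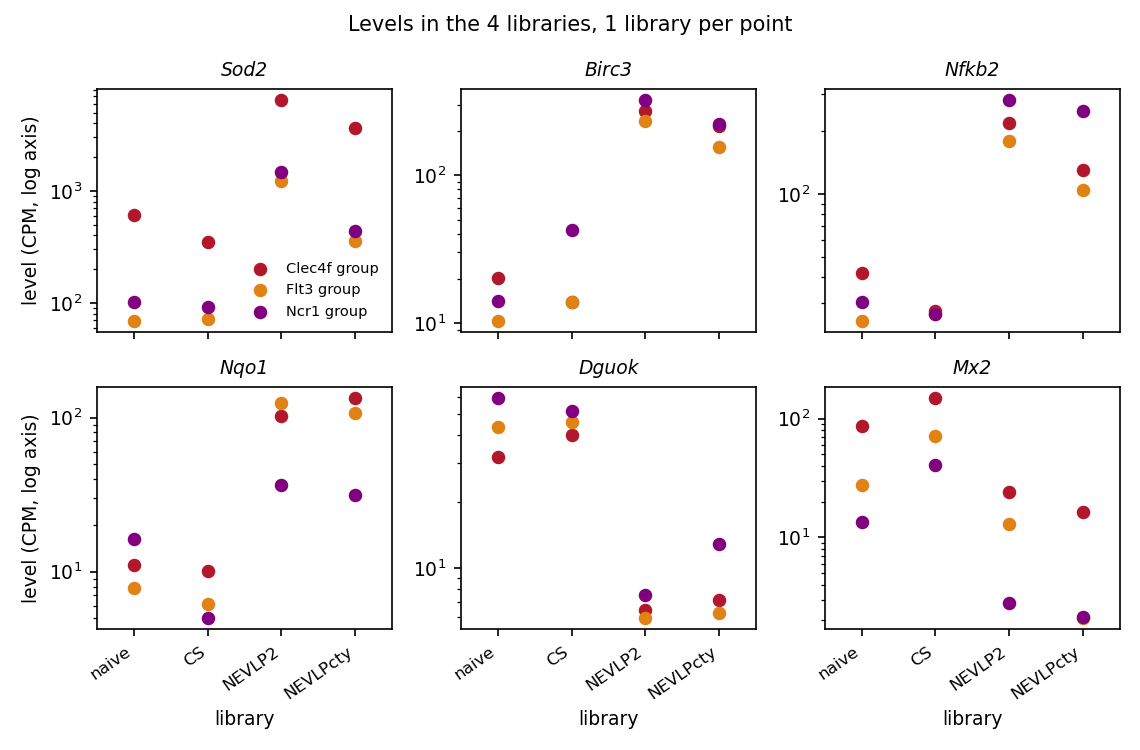
Levels (CPM, log axis) of 6 named genes in the naive, CS, NEVLP2 and NEVLPcty libraries for the Clec4f, Flt3 and Ncr1 groups, 1 library per point. Sod2, Birc3, Nfkb2 and Nqo1 are higher and Dguok and Mx2 lower in NEVLP2 than in CS in the groups drawn.

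Gene lists put these genes in context, with the count of measured members past 2-fold and the list's median log2 ratio set beside the group's own share and median given above. Of the NF-kB targets, 17 of 18 were at least 2-fold higher in the Clec4f, Stab2 and Colec11 groups, 13 of 15 in Flt3 and 15 of 17 in Ncr1, with 0 lower in any. Medians were 2.21, 3.26, 3.12, 1.59 and 2.58. The inhibitor Nfkbia was at 789, 934, 949, 629 and 307 CPM in CS and at 2625, 8043, 6845, 1410 and 1898 CPM in NEVLP2. Tnfaip3, which encodes the deubiquitinase A20, went from 4.27 to 114 CPM in the Stab2 group. Members under 2-fold were Cd83 in Clec4f and Flt3 (0.54 and 0.45), Nfkbiz in Stab2 and Colec11 (0.65 and 0.34), Tnip1 in Flt3 and Ncr1 (0.69 and 0.81) and Cflar in Ncr1 (0.92).

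The NRF2 and heme list had 10 of 16, 9 of 14, 11 of 15, 9 of 11 and 9 of 14 members higher, with medians of 1.46, 1.75, 1.95, 1.87 and 1.49. Hmox1, heme oxygenase 1, was at 1037, 121, 234, 14.9 and 9.94 CPM in CS and at 11375, 11754, 10923, 1450 and 1077 CPM in NEVLP2. Its Ncr1 value is background-prone, and 1 barcode held 58% of its CS UMIs in the Colec11 group, 47.8% in Flt3 and, in NEVLP2, 35.7% in Ncr1. Txnrd1, a thioredoxin reductase, had log2 ratios of 3.66, 4.05, 3.49, 4.13 and 1.82. Ferritin light chain Ftl1 was higher in all groups, at 6959 against 17109 CPM in Clec4f and 2245 against 10839 CPM in Stab2.

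Iron export and the later step of heme breakdown went the other way. Slc40a1, the iron exporter ferroportin, was at 849 CPM in CS and 214 CPM in NEVLP2 in the Clec4f group and at 114 and 19.8 CPM in Stab2. Blvrb, a biliverdin reductase, was at 399 and 164 CPM in Clec4f and at 103 and 22.2 CPM in Stab2. The perfusate held red cells, and red cell markers summed to 806 CPM in CS and 117 CPM in NEVLP2 in the Clec4f group, and to 40.4 and 14.5 CPM in Stab2. The part of red cell RNA in these values was not tested.

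Cytokines and chemokines gave the largest single differences. Leaving out the background-prone members, 17 of 22 were higher in Clec4f, 14 of 16 in Stab2, 16 of 20 in Colec11, 8 of 10 in Flt3 and 7 of 12 in Ncr1. In the Stab2 group the neutrophil attractant Cxcl1 was at 143 CPM in CS and 25543 CPM in NEVLP2, and the monocyte attractant Ccl2 at 69.3 and 19188 CPM. The Clec4f group led in Ccl4, at 175 CPM in CS and 13494 CPM in NEVLP2, and in Il1b, at 357 and 3179 CPM. Csf3, the granulocyte growth factor, was at 0 UMIs in CS in Clec4f, Stab2 and Colec11 and at 120, 309 and 311 CPM in NEVLP2, which is at least 676-fold, 1329-fold and 69.5-fold higher against a floor of 3 UMIs in each group's CS library.

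The eosinophil attractant Ccl24 was lower in 4 groups. Of the other members of the list, Il18 was lower in Colec11 (31.3 and 8.89 CPM) and Ccl6, there background-prone, in Flt3 (390 and 172 CPM). Ccl24 was at 146, 709 and 718 CPM in the CS groups Clec4f, Stab2 and Colec11 and at 12.6, 59.5 and 52.5 CPM in NEVLP2. In the Ncr1 group its 120 UMIs in CS stood against 0 in NEVLP2, at least 42.3-fold lower. Il1rn, the antagonist of the IL-1 receptor, was higher in all 5 groups, with log2 ratios of 5.17, 3.90, 4.30, 5.28 and 5.08, the Stab2 value being background-prone.

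Interferon-induced genes did not move as 1 block. In the Clec4f group 6 were higher and 10 lower of 23, in Stab2 4 and 11 of 22, in Colec11 3 and 11 of 22, in Flt3 10 and 4 of 18 and in Ncr1 4 and 4 of 21. The medians were -0.34, -0.95, -0.94, 1.28 and -0.08, beside -0.33, -0.62, -0.50, -0.08 and -0.18 over all measured genes. The Flt3 median ran from 0.44 to 1.55 under alternative settings. Mx1 and Mx2 were lower in every group, whereas the chemokine Cxcl10 was higher in every group, from 69.5 to 818 CPM in Clec4f, 243 to 2114 in Stab2 and 19.4 to 903 in Flt3. Ifit3, an interferon-induced RNA-binding protein, was at 228 and 883 CPM in Clec4f, 6.15 and 114 in Flt3 and 27.8 and 529 in Ncr1, but at 697 and 605 in Stab2. In Flt3, 67.3% of its NEVLP2 UMIs lay in 1 barcode. Irf1, an interferon regulatory factor, was higher in Stab2 (log2 1.78), Colec11 (1.22) and Flt3 (1.55) and level in Clec4f (-0.08).

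**Figure D4:**
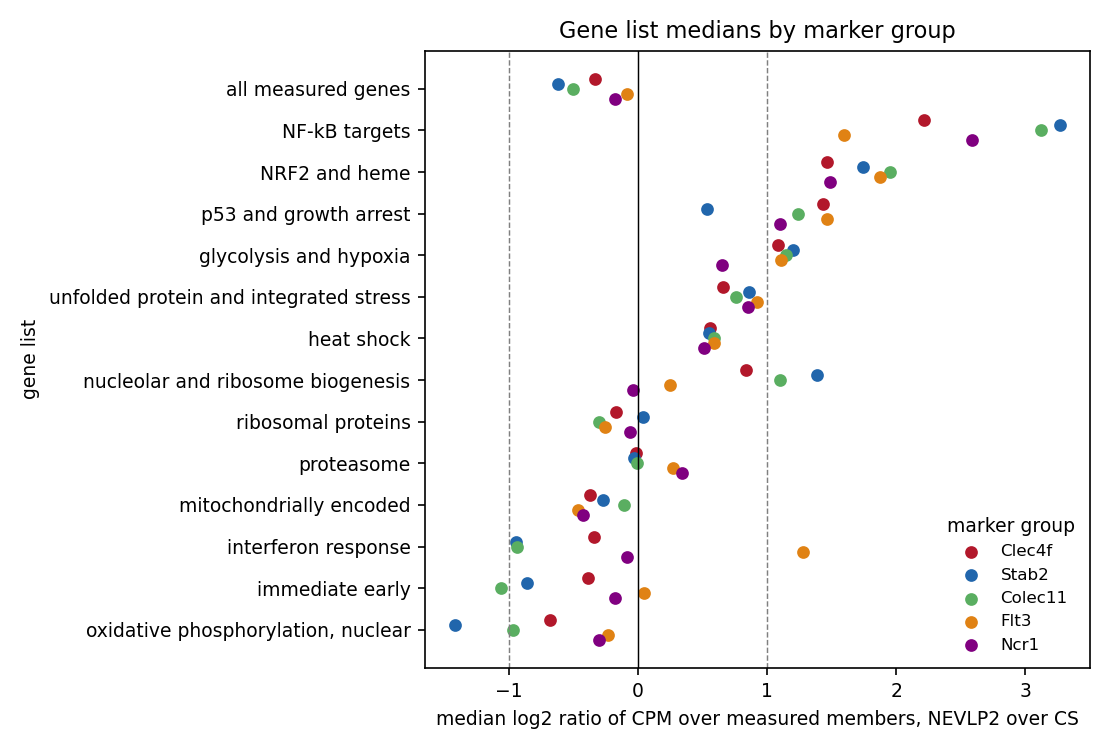
Median log2 ratio of CPM, NEVLP2 over CS (x axis), over the measured members of each gene list (y axis), 1 point per marker group, with dashed lines at 2-fold. NF-kB targets stand to the right in all 5 groups (1.59 to 3.26), and nuclear oxidative phosphorylation genes lie furthest left in Stab2 (-1.41).

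Nuclear genes of oxidative phosphorylation and nucleolar genes gave unequal counts across the groups, a difference that was not tested. Of the nuclear genes of oxidative phosphorylation, 40 of 74 were at least 2-fold lower in Stab2 and 36 of 74 in Colec11, against 21 of 74 in Clec4f, 6 of 72 in Flt3 and 7 of 75 in Ncr1. Medians were -1.41, -0.97, -0.68, -0.23 and -0.30. The share of lower members lay above the group's share of lower genes in Stab2 (40.4%) and Colec11 (36.3%), near it in Clec4f (26.3%) and below it in Flt3 and Ncr1. Complex I subunits were prominent in Stab2, with Ndufs3 at 113 CPM in CS and 13.7 CPM in NEVLP2 and Ndufa8 at 390 and 57.9 CPM. None of the 13 mitochondrially encoded genes, which serve the same complexes, passed 2-fold in any group, and their medians ran from -0.47 to -0.11. Glycolysis and hypoxia genes were higher in 8 of 16 members in Clec4f, 9 of 16 in Stab2, 10 of 15 in Colec11, 8 of 12 in Flt3 and 5 of 12 in Ncr1, with 0 lower in any.

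Nucleolar genes, which build ribosomes, were higher in 11 of 13 members in Stab2 and 8 of 14 in Colec11, but in 2 of 14 in Clec4f, 1 of 12 in Flt3 and 0 of 14 in Ncr1. The list medians were 0.83 in Clec4f, 1.39 in Stab2, 1.10 in Colec11, 0.25 in Flt3 and -0.04 in Ncr1. Over all measured genes they were -0.33, -0.62, -0.50, -0.08 and -0.18, so the Clec4f list also lay above its group. Npm1, nucleophosmin, was at 290 CPM in CS and 972 CPM in NEVLP2 in Stab2, against 1029 and 1180 CPM in Ncr1. The growth regulator Myc was at 5.59 and 355 CPM in Stab2 and at 135 and 77.0 CPM in Ncr1. In Clec4f it was also higher, with 687 of 16932902 UMIs in CS and 1212 of 13421963 in NEVLP2. The ribosomal protein genes themselves stayed near level: 69 were measured per group, 0 were higher, and at most 1 was lower.

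In the Clec4f group the genes that define Kupffer cells were lower in NEVLP2. Of 11 measured identity genes 9 were at least 2-fold lower (81.8% against the group's 26.3%), with a median of -1.16 against -0.33 over all genes. The 11 and the 9 include Clec4f itself, the marker of the rule, at 6417 CPM in CS and 2413 in NEVLP2 (log2 -1.41). Its barcodes were chosen by it, so its part in the count, share and median is a description only. The complement receptor Vsig4 was at 1868 and 552 CPM and the growth factor receptor Csf1r at 1154 and 363 CPM. Cd163, the haemoglobin scavenger receptor, was level, at 457 and 429 CPM, and C1qb was just inside 2-fold (log2 -0.91). In barcodes with at least 3 other Kupffer markers, a rule that uses some of these genes, the median was -0.93.

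The genes past 4-fold in the Clec4f group and under 2-fold in the same direction in each other measured group were 4, all higher. Peli1, a ubiquitin ligase of Toll-like receptor signalling, was at 33.7 CPM in CS and 174 CPM in NEVLP2, against 72.5 and 44.0 CPM in Stab2 and 36.8 and 36.6 CPM in Ncr1. The hyaluronan receptor Cd44 was at 25.2 and 106 CPM in Clec4f and at 123 and 150 CPM in Ncr1. Plek, pleckstrin, was at 124 and 513 CPM, and B3gnt2, a glycosyltransferase, at 64.1 and 309 CPM. Among the Clec4f barcodes with 3 other Kupffer markers all 4 ratios were larger, at 2.89, 2.74, 2.72 and 3.20 for Peli1, Cd44, Plek and B3gnt2, compared with 2.37, 2.08, 2.05 and 2.27. In the naive and NEVLPcty Clec4f groups Peli1 (44.2 and 108 CPM) and B3gnt2 (39.9 and 225 CPM) differed the same way, but so did both in Ncr1 (31.1 and 86.1 CPM, 45.9 and 112 CPM), whereas in Clec4f Plek (209 and 205 CPM) did not differ by 2-fold and Cd44 was lower in NEVLPcty (78.5 and 44.9 CPM).

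In the Stab2 group sinusoidal identity genes were lower while adhesion and clotting genes were higher. Of the 12 identity genes 9 were at least 2-fold lower (75% against 40.4% of all), with a median of -1.67 against -0.62. The transcription factor Maf was at 404 CPM in CS and 14.1 CPM in NEVLP2, the VEGF receptor Kdr at 3282 and 656 CPM and the nuclease Dnase1l3 at 3700 and 616 CPM. Lyve1, a hyaluronan receptor of sinusoidal endothelium, did not differ (4659 and 4959 CPM). The rule's own marker Stab2, counted among the 12 but not among the 9, was at 373 and 236 CPM. Summed endothelial markers were 23041 CPM in CS and 10669 CPM in NEVLP2, and this sum holds several of the identity genes.

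Of 11 genes of adhesion and coagulation measured in Stab2, 7 were higher (63.6% against 11.5%) and 2 lower. The leukocyte adhesion receptors Icam1 and Vcam1 were at 221 and 134 CPM in CS and at 2106 and 1093 CPM in NEVLP2. The plasminogen activator Plat (4.74 and 239 CPM) and the protein C receptor Procr (86.4 and 998 CPM) were also higher. Klf2, a transcription factor induced by laminar flow, was at 110 CPM in CS and 4.62 CPM in NEVLP2, and Icam2 at 715 and 89.6 CPM.

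Timp2, an inhibitor of metalloproteinases, was the widest of the genes particular to the Stab2 group by the 4-fold rule. It was at 28.7 CPM in CS and 195 CPM in NEVLP2 there, and at 901 and 428 CPM in Clec4f. Ncf4, a subunit of the phagocyte oxidase, was at 9.78 and 40.7 CPM, and the ribosome assembly factor Tsr1 at 4.97 and 22.0 CPM. Lower in Stab2 alone were 8 genes, led by Slc12a7, a potassium-chloride cotransporter (24.4 and 3.74 CPM), Scd2, a fatty acid desaturase (36.9 and 5.73 CPM), and Inpp5b, an inositol phosphatase (24.5 and 4.18 CPM). Slc12a7 was higher in the Ncr1 group, at 38.7 and 115 CPM. Kupffer markers summed to 310 CPM in CS and 295 CPM in NEVLP2 in the Stab2 group, and dendritic markers to 402 and 981 CPM. The dendritic sum includes Cd83, also in the NF-kB list, which was at 30.1 and 429 CPM there.

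The Colec11-positive barcodes gave stellate and matrix values that rest on few cells, beside the unequal Kupffer and NK marker sums given above. C1qa, a complement gene of macrophages, was at 957 and 89.7 CPM in them and is background-prone there. Of 9 measured cytotoxicity genes 7 were higher, but 8 of the 9 were background-prone and the other was lower. Gzmb, among the higher ones, had 69.7% of its NEVLP2 UMIs in 1 barcode. Of 9 matrix and stellate genes 3 were higher and 5 lower. Dcn, decorin, was at 126 UMIs in 3 of 138 CS barcodes and at 0 in NEVLP2, at least 77.6-fold lower, and Col1a1, a chain of type I collagen, at least 37.6-fold lower. Timp1, an inhibitor of metalloproteinases, was at 152 and 961 CPM, Reln, a glycoprotein of stellate cells, at 8.96 and 80.0 CPM, and Lrat, the enzyme that forms retinyl esters, at 140 and 150 CPM. Reln stood at higher levels in the Stab2 group, 15.0 and 127 CPM, and Lrat at lower ones, 25.8 and 57.3 CPM. Thinned to 1000 UMIs per barcode, the median of the list turned from -1.68 to 0.58. By the 4-fold rule Ddx52, an RNA helicase, was higher in this group alone (8.96 and 42.8 CPM), on 6 UMIs in CS.

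In the Flt3 group 6 of 7 measured genes of the dendritic maturation list were at least 2-fold higher (85.7% against 13.1%). The list was not particular to this group, with 7 of 9 higher in Clec4f, 5 of 6 in Stab2, 4 of 6 in Colec11 and 5 of 6 in Ncr1. Without background-prone members the counts were 4 of 5 in Stab2 and 3 of 4 in Ncr1. The Ncr1 count includes Il12b, on 31 UMIs against 0. In the Flt3 group the costimulatory receptor Cd40 was at 46.3 CPM in CS and 602 CPM in NEVLP2, the costimulatory ligand Cd80 at 16.5 and 153 CPM and the cytokine signalling inhibitor Socs1 at 16.2 and 366 CPM. Cd83, a maturation marker, was at 282 and 385 CPM, and class II genes did not differ by 2-fold, with Cd74 at 38501 and 40100.1 CPM. Dendritic markers summed to 3170 and 2928 CPM, monocyte markers to 2597 and 1185 CPM and endothelial markers to 1105 and 1162 CPM. The mix of dendritic subsets differed between the libraries. Siglech, a marker of plasmacytoid dendritic cells, was found in 19.1% of the group's CS barcodes and 32.4% of its NEVLP2 barcodes, and Id2, a regulator of conventional dendritic cells, in 77.1% and 52.3%. Xcr1, a receptor of cross-presenting dendritic cells, was at 236 and 43.5 CPM. Leaving out barcodes with Siglech gave 685 genes higher and 1174 lower, and the part of the mix in the values above was otherwise not tested.

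Gadd45g, a growth arrest gene, stood out most in the Flt3 group, at 12.9 CPM in CS and 361 CPM in NEVLP2 (log2 4.80, interval 4.35 to 5.30). In the other groups its log2 ratios were 0.96, 0.43, 0.88 and 0.99. Bcl2l11, the death-promoting protein Bim, was at 6.15 and 60.8 CPM in Flt3 and did not differ by 2-fold in Stab2 (39.3 and 40.1 CPM) or Ncr1 (52.7 and 46.0 CPM). Both were among 10 genes higher in Flt3 by the 4-fold rule, and Glipr1 (496 and 124 CPM) and Tbc1d9 (83.5 and 19.8 CPM) were lower. In the naive and NEVLPcty libraries Bcl2l11 was at 7.41 and 39.1 CPM in Flt3 and also past 2-fold in Ncr1 (53.7 and 143 CPM), and in Flt3 Gadd45g at 27.1 and 40.4 CPM, so the Gadd45g difference was under 2-fold there.

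**Figure D5:**
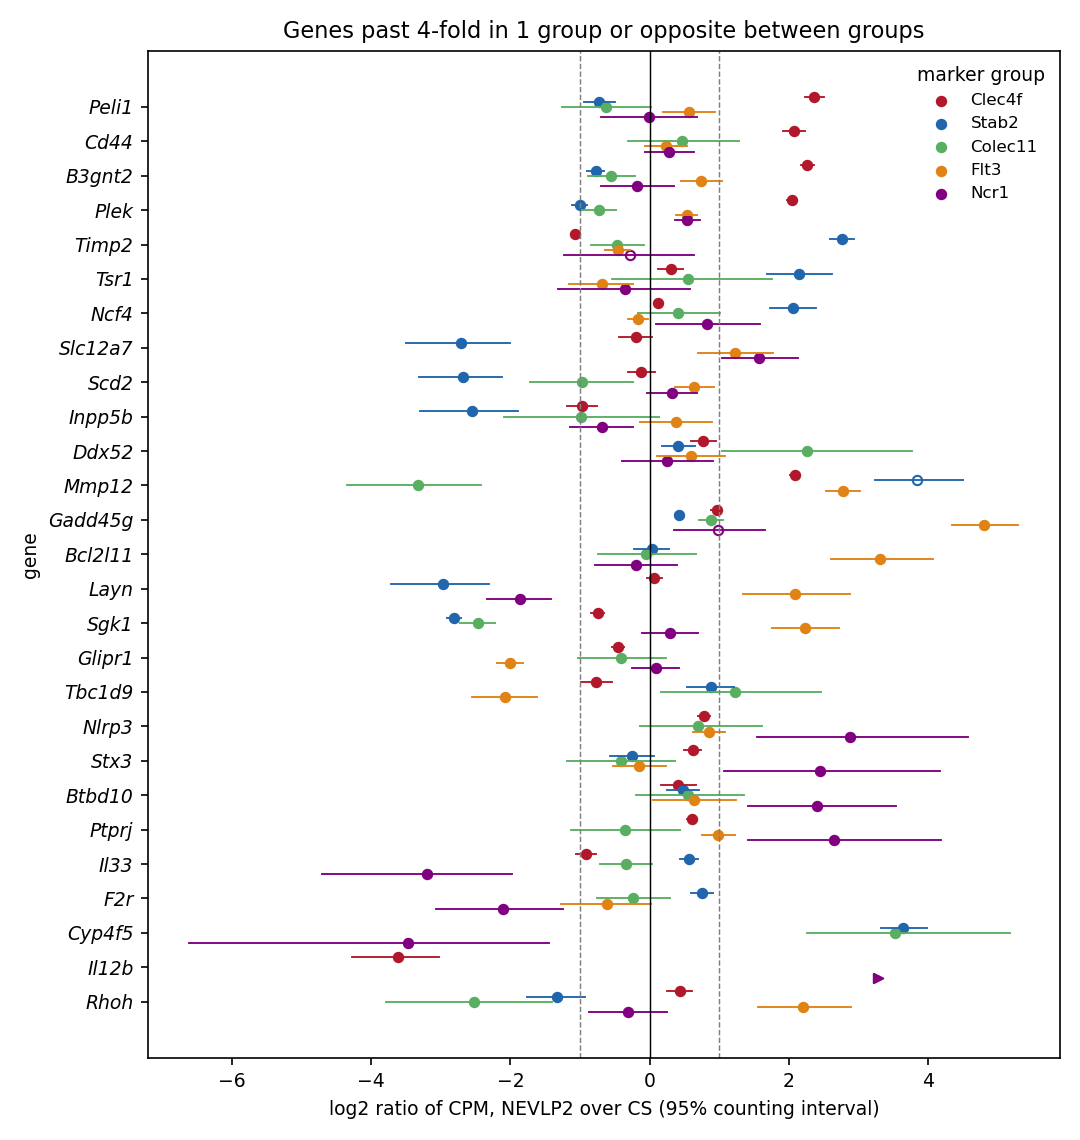
Log2 ratio of CPM, NEVLP2 over CS, with 95% counting intervals (x axis), for genes past 4-fold in 1 marker group and for genes past 2-fold in opposite directions (y axis), 1 library per condition. Open points are background-prone, the triangle is a lower bound, and dashed lines mark 2-fold; Gadd45g in Flt3 lies at 4.80 with the other groups under 1.

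In the Ncr1 group NK markers summed to 17515 CPM in CS and 18664 CPM in NEVLP2, and in this sum Prf1, Nkg7 and Klrk1 were at higher levels in NEVLP2. The other 8 NK markers were at lower levels, among them the protease Gzmm (3825 and 2171 CPM), the IL-2 receptor chain Il2rb (1519 and 631 CPM) and the rule's marker Ncr1 (662 and 389 CPM). At least 3 other NK markers were found in 95.3% of the CS barcodes and 86.5% of the NEVLP2 barcodes. Of these markers, Eomes was found in 11.3% and 5.41% of the barcodes and Tbx21 in 69.5% and 61.6%. Whether the group also holds other innate lymphoid cells was not tested. Of 12 cytotoxicity genes 2 were at least 2-fold higher (16.7% against 8.53%) and 0 lower. Granzyme B (Gzmb) was at 1558 and 6825 CPM and granzyme F (Gzmf) at 21.9 and 67.6 CPM. Perforin (Prf1, 5302 and 8557 CPM), granzyme A (Gzma, 8191 and 10204 CPM) and Nkg7 (3792 and 4676 CPM) stayed under 2-fold. The chemokine Ccl5, a product of NK cells, was at 44891 and 35565 CPM, while Ccl3 was at 1373 and 3503 CPM. In the naive and NEVLPcty Ncr1 groups Gzmb was at 1043 and 459 CPM and Gzmf at 14.1 and 3.23 CPM. Both granzymes thus went the other way there.

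By the 4-fold rule 4 genes were higher in Ncr1 alone: the inflammasome sensor Nlrp3 (4.97 and 36.6 CPM), Stx3, a syntaxin of vesicle fusion (4.97 and 27.2 CPM), Btbd10 (9.94 and 52.6 CPM) and the phosphatase Ptprj (5.96 and 37.6 CPM). Their CS levels rest on 5 to 10 UMIs. Neutrophil markers summed to 25.8 CPM in CS and 278 CPM in NEVLP2 in this group, with 0 of 5 at 0 in NEVLP2, and their part in these values was not tested. Of the lower genes, F2r, a thrombin receptor, was at 56.6 and 13.1 CPM, and Il33, an alarmin of endothelium, owed 92.3% of its CS UMIs to 1 barcode. In the naive and NEVLPcty Ncr1 groups F2r went the other way, at 29.0 and 201 CPM.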

How the data were processed

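The 4 libraries were deposited as matrices of UMI counts per gene and barcode, whole numbers that the authors made with Cell Ranger (version 2.1.1 per the submitters' processing notes, 6.0.0 per the file headers). No genome build was named in the labels or headers. Features with the same symbol were summed. The counts of each marker group were added and divided by the group total (CPM). Ratios have exact conditional binomial 95% intervals, and a gene at 0 in 1 library was set to 3 UMIs there. There are no replicates, so no test was run. Named genes were the 12 per direction past 2-fold in all groups, up to 4 higher and 3 lower past 4-fold in 1 group, 6 with opposite directions, and members of gene lists. The members and lists were chosen with earlier results of these data known. Design plans assumed 6 groups, of which 5 could be formed. Alternatives were marker, mitochondrial, doublet, depth, scaling and level settings; those on the Colec11 group, the other libraries and the Kupffer markers were chosen after seeing the data. The ratio step was tested on simulated data. Scripts ran in Python 3.11.15 with scipy 1.17.1, scanpy 1.11.5 (Scrublet), numpy 2.4.6, pandas 2.3.3 and matplotlib 3.10.9. Some results are not reported here. Promoters were from RefSeq, GRCr8.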

Additional observations from a re-analysis of the deposited data

Results flagged for a closer look

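The ratio of NEVLP2 to CS was past 2-fold higher in 1 marker group and past 2-fold lower in another for 146 genes. Of these, 127 have a gene symbol, counting intervals on either side of an even ratio and values that are not background-prone. The 6 given here have the widest ratios of the 127, taken on the smaller of both, and the difference between the groups was not tested. Sgk1, a kinase induced by glucocorticoids and salt, had a log2 ratio of 2.23 in the Flt3 group (15.2 CPM in CS and 71.3 in NEVLP2) and -2.81 in the Stab2 group (1172 and 167 CPM). Layn, a hyaluronan receptor, had 2.08 in Flt3 (6.47 and 27.4 CPM) and -2.97 in Stab2 (32.7 and 4.18 CPM). Rhoh, a GTPase of blood cells, had 2.21 in Flt3 (8.41 and 38.8 CPM) and -2.52 in Colec11 (41.8 and 7.27 CPM).

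Cyp4f5, a cytochrome P450, had a log2 ratio of 3.65 in Stab2 (7.45 and 93.4 CPM) and -3.47 in Ncr1 (20.9 and 1.88 CPM). Mmp12, a macrophage metalloproteinase, had 2.78 in Flt3 (53.1 and 364 CPM) and -3.32 in Colec11 (97.0 and 9.70 CPM), where 61.5% of the CS UMIs lay in 1 barcode. Kupffer markers in the Colec11 group summed to 1958 CPM in CS and 238 CPM in NEVLP2, and their part in the Mmp12 and Rhoh ratios was not tested. Il12b, a subunit of IL-12, was at -3.62 in Clec4f (21.9 and 1.79 CPM), on 0.484% of the CS barcodes, and at a bound of 3.29 in Ncr1, where its 31 UMIs in NEVLP2 lay in 1 barcode and CS had 0.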

How the results depend on the processing

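Of 1593 values of named genes under alternatives, 1411 moved by less than the counting interval, 182 moved by more and 0 reversed; of 581 list medians 533, 44 and 4. The reversed medians were the matrix list in Colec11 after thinning to 1000 UMIs (0.58) and, at 100 UMIs and 100 CPM, sinusoidal identity in Ncr1 (0.0068), endothelial adhesion in Flt3 (-1.01) and dendritic maturation in Ncr1 (-0.0026). Of 142 counts past 2-fold, 36 moved by over 1.5 times. At least 2 marker UMIs gave 1120 lower in Colec11 and 67 higher and 79 lower in all 5. Thinning gave 634 lower in Colec11, 341 higher and 246 lower in Flt3, 315 and 401 in Ncr1, and 40 and 19 in all 5. Centring gave 999 lower in Clec4f, 1514 higher in Stab2, 1411 higher in Colec11, and 185 and 142 in all 5. At 100 UMIs and 100 CPM counts were 303 and 359 in Clec4f, 433 and 714 in Stab2, 416 and 581 in Colec11, 279 and 159 in Flt3, 203 and 164 in Ncr1, and 51 and 17 in all 5; fewer genes are tested there. With no minimum beyond 10 UMIs they were 1239 and 4378 in Clec4f, 1285 and 5193 in Stab2, 1127 and 2411 in Flt3, 794 and 1933 in Ncr1, and 606 lower in all 5. Apart from the settings that test other genes or fewer cells the cause was not tested. Among named genes past 2-fold, only Ccl9 in Flt3 (0.92, barcodes weighted equally) and Rhoh in Stab2 (-0.71, centred) came under it. Leaving out Cd79a barcodes with Jchain was not run, since no such group was formed. Depth limits genes under about 20 CPM in the Colec11, Flt3 and Ncr1 groups. No paired analysis was possible because each condition is 1 library.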

Other observations

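Early response genes split into sets that differed in opposite directions. Fos was at 2226 CPM in CS and 362 CPM in NEVLP2 in the Clec4f group, 7941 and 1034 in Stab2 and 1124 and 299 in Flt3, and at 640 and 516 in Ncr1, where it is background-prone. Klf4, a Krüppel-like transcription factor, was lower in all 5 groups, with log2 ratios of -2.39, -3.92, -4.13, -1.13 and -1.06 in the order Clec4f, Stab2, Colec11, Flt3 and Ncr1. In contrast Ier3, a survival gene, had 2.21, 3.05, 2.98, 2.03 and 3.45, its Flt3 and Ncr1 values being background-prone. Over the whole list 6 members were higher and 8 lower of 21 in Clec4f, and 7 and 10 of 21 in Stab2, beside 10.9% and 26.3%, and 11.5% and 40.4%, of all genes.

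The RNA-binding proteins known from mild cold diverged. Cirbp was lower in NEVLP2 in all 5 groups, at 63.6 and 12.4 CPM in Clec4f, 88.2 and 7.93 in Stab2, 77.6 and 7.27 in Colec11, 56.6 and 6.75 in Flt3 and 80.5 and 23.5 in Ncr1. In naive and NEVLPcty Cirbp was at 85.9 and 17.1 CPM in Clec4f, 53.4 and 16.2 in Flt3 and 98.9 and 36.6 in Ncr1. In CS and NEVLP2 Rbm3 was at 341 and 716 CPM in Clec4f and at 675 and 749 CPM in Ncr1, with log2 ratios of 1.07, 0.79, 0.64, 0.42 and 0.15. The glucocorticoid-induced Tsc22d3 was lower in every group, with log2 ratios of -2.09, -1.73, -1.83, -1.30 and -1.67. Its list had 6 higher and 2 lower of 11 in Clec4f, beside 10.9% and 26.3% of all genes. Stab2 had 3 and 3 of 10, beside 11.5% and 40.4%, and Colec11 2 and 4 of 11, beside 12.5% and 36.3%. Flt3 had 1 and 1 of 9, beside 13.1% and 17.8%, and Ncr1 4 and 3 of 11, beside 8.53% and 18.4%. List medians were 1.08, -0.09, 0.11, 0.06 and 0.30 in the same order of groups. The growth arrest gene Cdkn1a was at 18.4 and 697 CPM in Flt3 and 40.8 and 238 CPM in Clec4f, and the glucose transporter Slc2a1 at 5.73 and 241 CPM in Clec4f and 28.8 and 66.7 CPM in Ncr1.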
